A study of Homo sapiens with 9 samples.

Results

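The E2F transcription factors, the RB pocket proteins that restrain them and MYBL2 were followed in FaDu cells, an established HNSCC line (head and neck squamous carcinoma). The 10 genes were taken by name from a table of 58929 genes. They were E2F1, E2F2, E2F3, E2F4, E2F7, E2F8, RB1, RBL1, RBL2 and MYBL2, and all 10 passed the filter on low counts that left 16065 genes for testing. RNA sequencing had been run on 9 libraries in 3 groups of 3, namely cells given 250 nM YKL-5-124, cells given 250 nM samuraciclib and cells given the vehicle DMSO. The labels give the genotype of all groups as wild type. YKL-5-124 binds CDK7 covalently and samuraciclib binds it reversibly. The exposure is stated as 48 h in the treatment protocol and in the text of the study, and as 72 h in the design of the series. FaDu is a cell line and does not hold the stroma or immune cells of a tumor.

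Progression through G1 depends on these genes. E2F1, E2F2 and E2F3 activate genes of DNA replication, and RB1 binds and silences them until cyclin D with CDK4 or CDK6, and cyclin E with CDK2, phosphorylate it. E2F4 works mainly with the pocket proteins RBL2 (p130) and RBL1 (p107), which join it and the MuvB complex in DREAM, a repressor of cell cycle genes in resting cells. In cycling cells MuvB instead binds MYBL2 (B-MYB) and later FOXM1 and activates genes of G2 and mitosis. E2F7 and E2F8 bind DNA without a DP partner and repress E2F targets. Several genes of this group are known targets of E2F themselves. CDK7 is the kinase that activates the cell cycle CDKs, and it also phosphorylates RNA polymerase II as a part of TFIIH.

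The promoters of the members were read from RefSeq (GRCh38.p14) as windows of 250 bases before and 50 bases after a start site. Windows were found for 9 of the 10 genes, with 2 each for E2F3 and RBL2, and the window of RB1 belongs to a start 172724 bases inside its gene model and is not shown. Each was searched on both strands for the E2F words TTTCCCGC, TTTCGCGC, TTTGCCGC and TTTGGCGC, for the cell cycle homology region of MuvB targets (CHR: TTTGAA or TTCGAA) and for CCAAT. None of the E2F words overlapped a CHR or CCAAT match in the 4 windows that held them. The sequences of 4 members with an E2F word and of MYBL2 are shown so that the places of the words can be read beside the changes of these genes, the MYBL2 window holding none of the 4 words searched. Capitals mark the E2F words, and the lines run 5′ to 3′ on the strand of the gene.
E2F1, chr20:33686336-33686635, minus strand: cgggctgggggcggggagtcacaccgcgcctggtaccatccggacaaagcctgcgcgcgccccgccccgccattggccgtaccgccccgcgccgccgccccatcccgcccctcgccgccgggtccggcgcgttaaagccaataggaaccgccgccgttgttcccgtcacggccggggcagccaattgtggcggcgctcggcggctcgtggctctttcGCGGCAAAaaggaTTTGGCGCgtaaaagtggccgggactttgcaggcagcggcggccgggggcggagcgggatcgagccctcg
E2F2, chr1:23531184-23531483, minus strand: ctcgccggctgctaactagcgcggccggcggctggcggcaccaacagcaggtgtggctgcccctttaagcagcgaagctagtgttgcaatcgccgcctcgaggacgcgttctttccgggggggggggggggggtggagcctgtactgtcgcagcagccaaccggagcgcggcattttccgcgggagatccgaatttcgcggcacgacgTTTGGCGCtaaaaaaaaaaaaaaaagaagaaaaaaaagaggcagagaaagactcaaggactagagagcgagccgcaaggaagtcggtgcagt
E2F3, chr6:20401629-20401928, plus strand: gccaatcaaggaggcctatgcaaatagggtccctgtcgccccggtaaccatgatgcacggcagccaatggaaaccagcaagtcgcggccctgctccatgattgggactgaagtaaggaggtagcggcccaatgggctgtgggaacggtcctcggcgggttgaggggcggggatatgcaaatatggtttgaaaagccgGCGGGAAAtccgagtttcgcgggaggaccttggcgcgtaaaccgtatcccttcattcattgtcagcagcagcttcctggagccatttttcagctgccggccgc
RBL1, chr20:37095948-37096247, minus strand: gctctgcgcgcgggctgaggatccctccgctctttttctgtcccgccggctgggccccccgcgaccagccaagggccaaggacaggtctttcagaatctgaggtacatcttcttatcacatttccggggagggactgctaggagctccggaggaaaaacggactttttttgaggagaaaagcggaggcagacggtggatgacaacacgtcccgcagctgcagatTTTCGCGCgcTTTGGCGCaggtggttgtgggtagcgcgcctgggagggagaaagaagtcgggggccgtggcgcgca
MYBL2, chr20:43666864-43667163, plus strand: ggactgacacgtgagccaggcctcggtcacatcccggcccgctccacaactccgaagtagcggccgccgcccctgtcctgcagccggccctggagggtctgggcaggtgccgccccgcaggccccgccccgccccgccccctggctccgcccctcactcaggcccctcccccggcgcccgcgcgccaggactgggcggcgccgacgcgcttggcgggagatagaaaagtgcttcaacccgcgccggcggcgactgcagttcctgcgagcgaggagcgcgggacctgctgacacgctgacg

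In the window of E2F1, TTTGCCGC stood on the reverse strand 33 bases before the start and TTTGGCGC on the strand of the gene 20 bases before it. RBL1 held TTTCGCGC at 26 and TTTGGCGC at 16 bases before its start, separated by a pair of bases. E2F2 held TTTGGCGC at 42 bases before its start. The window of E2F3 nearest to the start in the table held TTTCCCGC on the reverse strand at 53 bases and a CHR word at 65 bases before the start. E2F4, E2F7, RBL2 and MYBL2 held none of these exact E2F words, and RBL2 held a CHR word in 1 of its windows, 25 bases after the start. Near variants of the words, such as ttggcggg in the MYBL2 window, were not searched. The MYBL2 window starts from a site 95 bases inside the gene model of the table. The RBL2 windows start from sites 494 and 1642 bases inside its gene model. RB1 is counted among the 9 members below, though its window lies far inside the gene and held no E2F, CHR or CCAAT match. An E2F word was found for 4 of 9 members (44.4%), for 23 of 36 genes of a list of G1/S targets of E2F (63.9%), for 3 of 31 genes of a list of G2/M targets (9.68%), for 3.99% of all 27305 genes with windows of the same length and for 6.56% of the 10679 of these that were tested. A CHR word was found for 22 of 31 G2/M genes (71.0%), for 5 of 36 G1/S genes (13.9%) and for 2 of the 9 members (22.2%). The shares with a CHR word were 19.5% of all genes and 15.3% of the genes tested. CCAAT was found for 4 of the 9 members (44.4%), for 39.7% of all genes and for 42.9% of the genes tested, so that the members' share was near the background. A match gives letters in a window and is not a measured binding site, and no match says only that these letters are not in that window.

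Libraries held 18264302 to 24613892 counts with YKL-5-124, 19346587 to 22111350 with samuraciclib and 18096180 to 28018126 with DMSO. Values are given as CPM, counts over the TMM-scaled size of the library. RN7SL2, a 7SL RNA gene, was low in 1 library of each group (YKL-5-124 2, samuraciclib 2 and DMSO 3), at 24.9 to 59.3 CPM, and reached 695.8 to 980.8 CPM in the other 6. All 11 squamous epithelial markers checked were above 1 CPM in every group, with sums of 11900 to 12670 CPM with YKL-5-124, 12630 to 13260 with samuraciclib and 11600 to 11970 with DMSO. Of 7 fibroblast, 7 immune and 5 endothelial markers, 1 of each list was above 1 CPM in each group, and the sums of these lists stayed between 2.46 and 32.1 CPM in every library. The methods call the 3 libraries of a group biological replicates and the labels number them without naming separate cultures, so p-values measure the spread between these libraries.

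A gene was called where edgeR's quasi-likelihood test gave a Benjamini-Hochberg adjusted p below 0.05 over all genes tested and the log2 fold change exceeded 0.5 in either direction, which is 1.41-fold. In cells given YKL-5-124, 4 of the 10 members were called lower than in DMSO and 0 higher, while 9.93% of all genes tested were called lower and 11.9% higher. The 4 were E2F1, E2F2, RBL1 and MYBL2. In cells given samuraciclib, the same 4 members were called lower than in DMSO and 0 higher, with 9.55% of all genes called lower and 8.17% higher. By adjusted p alone, 8 members were lower and 1 was higher with YKL-5-124, against backgrounds of 25.2% lower and 24.1% higher. By the same rule 6 were lower and 2 higher with samuraciclib, against 23.1% lower and 21.0% higher. The median log2 fold change of the members was -0.38 with YKL-5-124, where that of all genes tested was 0.01, and -0.33 with samuraciclib, where that of all genes was 0.00. Both comparisons use the same DMSO libraries. In bulk RNA, fewer cells in a phase of the cycle and less transcript per cell cannot be told apart.

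**Figure D1:**
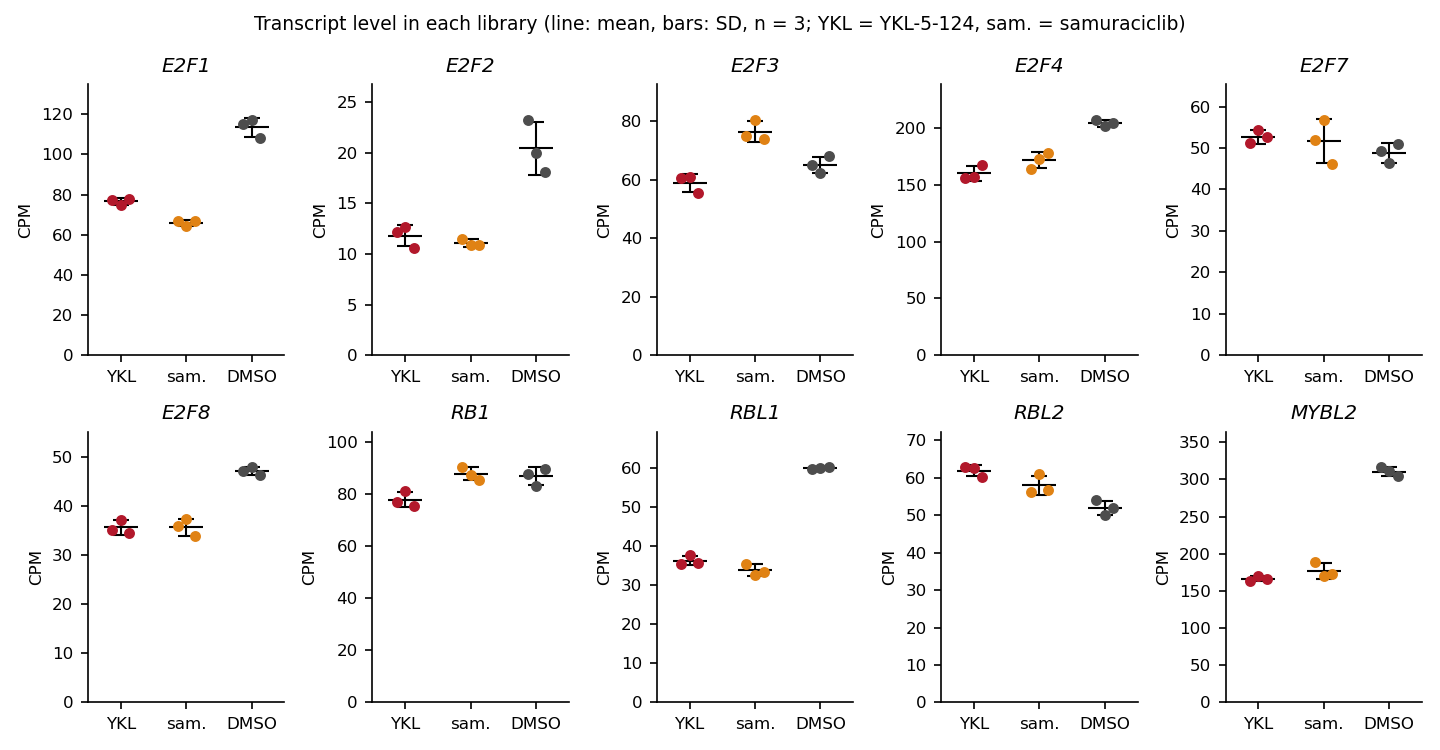
Transcript level of each of the 10 genes in CPM, with 1 point per library, for YKL-5-124 (YKL), samuraciclib (sam.) and DMSO. The line is the mean and the bars the SD of 3 libraries, and each axis starts at 0. E2F1, E2F2, RBL1 and MYBL2 lay lower in all inhibitor libraries than in any DMSO library, by 1.48-fold to 1.87-fold on the fitted scale, while E2F7 and RB1 differed little.

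MYBL2, the MYB factor that joins MuvB in S phase, was among the members the one with the smallest adjusted p in both comparisons with DMSO. It lies at chr20:43667019-43716496 on the plus strand (GRCh38, ENSG00000101057). MYBL2 had 164, 170 and 165 CPM with YKL-5-124, 189, 170 and 173 CPM with samuraciclib and 317, 311 and 304 CPM with DMSO. Every inhibitor library was below every DMSO library, and samuraciclib 1 was the highest of the 6. MYBL2 fell 1.87-fold with YKL-5-124, with a log2 fold change of -0.90 ± 0.05 (SE, adjusted p = 6.29e-11, edgeR). It fell 1.75-fold with samuraciclib, with a log2 fold change of -0.81 ± 0.05 (SE, adjusted p = 4.89e-10, edgeR).

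E2F1, the activator best known for its binding to RB1, lies at chr20:33675683-33686404 on the minus strand (ENSG00000101412). E2F1 had 77.4, 74.6 and 77.6 CPM with YKL-5-124, 66.8, 64.2 and 66.8 CPM with samuraciclib and 115, 117 and 108 CPM with DMSO. The 3 groups did not overlap, and the samuraciclib libraries were the lowest. E2F1 fell 1.48-fold with YKL-5-124 (log2 fold change -0.57 ± 0.05, adjusted p = 2.74e-08, edgeR) and 1.72-fold with samuraciclib (-0.78 ± 0.05, adjusted p = 9.65e-10, edgeR). Its call with YKL-5-124 lay close to the fold threshold. Scaled by library size alone, under which the all-gene median of that comparison was 0.14, the log2 fold change was -0.44 and E2F1 was no longer called.

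E2F2, the activator with the fewest reads of the 10 genes, lies at chr1:23506430-23531220 on the minus strand (ENSG00000007968), and its counts ranged from 212 to 480 per library. E2F2 had 12.2, 12.7 and 10.6 CPM with YKL-5-124, 11.5, 10.9 and 10.9 CPM with samuraciclib and 23.2, 20.0 and 18.1 CPM with DMSO. The DMSO libraries spread most, with a coefficient of variation of 12.8%, and still stayed above every inhibitor library. E2F2 fell 1.72-fold with YKL-5-124 (log2 fold change -0.78 ± 0.10, adjusted p = 5.92e-06, edgeR) and 1.83-fold with samuraciclib (-0.88 ± 0.10, adjusted p = 2.23e-06, edgeR).

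E2F3, the other activator, differed from DMSO in opposite directions with the inhibitors, by less than the fold threshold. It lies at chr6:20401906-20493715 on the plus strand (ENSG00000112242). E2F3 had 60.6, 61.0 and 55.5 CPM with YKL-5-124, 74.9, 80.4 and 73.9 CPM with samuraciclib and 64.9, 62.4 and 68.0 CPM with DMSO. The YKL-5-124 libraries were the lowest and the samuraciclib libraries the highest, with no overlap among the 3 groups. Against DMSO the log2 fold change was -0.14 ± 0.06 with YKL-5-124 (adjusted p = 0.0470, edgeR) and 0.23 ± 0.06 with samuraciclib (adjusted p = 0.00293, edgeR), and the fold threshold was not reached. Over the 21 alternative settings the YKL-5-124 value ran from -0.18 to -0.01 and the samuraciclib value from 0.19 to 0.29.

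E2F4, the E2F of the repressive complexes, lies at chr16:67192169-67198918 on the plus strand (ENSG00000205250). E2F4 had 156, 157 and 168 CPM with YKL-5-124, 164, 173 and 178 CPM with samuraciclib and 207, 202 and 204 CPM with DMSO. All inhibitor libraries were below the DMSO libraries, and the inhibitor groups overlapped. The log2 fold change was -0.35 ± 0.05 with YKL-5-124 (adjusted p = 4.83e-06, edgeR) and -0.25 ± 0.05 with samuraciclib (adjusted p = 0.000196, edgeR), both short of the fold threshold.

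The atypical repressors E2F7 and E2F8, which act on the same targets, differed from each other. E2F8 lies at chr11:19224063-19241620 on the minus strand (ENSG00000129173). It had 35.1, 37.3 and 34.6 CPM with YKL-5-124, 36.0, 37.4 and 33.9 CPM with samuraciclib and 47.1, 48.0 and 46.5 CPM with DMSO. The inhibitor groups overlapped each other and lay below DMSO, with log2 fold changes of -0.40 ± 0.06 in both comparisons (adjusted p = 2.27e-05 with YKL-5-124 and 3.10e-05 with samuraciclib, edgeR), short of the fold threshold. E2F7 lies at chr12:77021247-77065580 on the minus strand (ENSG00000165891) and had 51.1, 54.4 and 52.6 CPM with YKL-5-124, 52.0, 56.8 and 46.2 CPM with samuraciclib and 49.2, 46.3 and 50.9 CPM with DMSO. The YKL-5-124 libraries lay just above the DMSO libraries, and the samuraciclib libraries overlapped both. For E2F7 the 95% interval of the log2 fold change ran from -0.03 to 0.25 with YKL-5-124 (adjusted p = 0.195, edgeR) and from -0.06 to 0.23 with samuraciclib (adjusted p = 0.360, edgeR). The antisense model AC009652.2 covers the whole span of E2F8 and had 0 to 7 counts per library, where E2F8 had 660 to 1233.

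Among the pocket proteins, RBL1 fell with both inhibitors. It lies at chr20:36996349-37095995 on the minus strand (ENSG00000080839). RBL1 had 35.6, 37.7 and 35.8 CPM with YKL-5-124, 35.5, 32.7 and 33.5 CPM with samuraciclib and 59.7, 60.0 and 60.3 CPM with DMSO. The DMSO libraries were nearly equal, and every inhibitor library lay far below them. RBL1 fell 1.65-fold with YKL-5-124 (log2 fold change -0.72 ± 0.06, adjusted p = 7.84e-09, edgeR) and 1.77-fold with samuraciclib (-0.82 ± 0.06, adjusted p = 2.81e-09, edgeR).

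RBL2, the pocket protein of resting cells, had the opposite sign. It lies at chr16:53433977-53491649 on the plus strand (ENSG00000103479). RBL2 had 62.9, 62.6 and 60.2 CPM with YKL-5-124, 56.3, 60.9 and 56.8 CPM with samuraciclib and 54.0, 50.1 and 51.9 CPM with DMSO. Every inhibitor library was above every DMSO library. The log2 fold change was 0.25 ± 0.05 with YKL-5-124 (adjusted p = 0.000871, edgeR) and 0.16 ± 0.05 with samuraciclib (adjusted p = 0.0252, edgeR), short of the fold threshold in both. A stretch of 1.06% of the RBL2 span is shared with AKTIP on the opposite strand, which had 362 to 648 counts.

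RB1, the retinoblastoma protein gene itself, changed least with samuraciclib. It lies at chr13:48303726-48599436 on the plus strand (ENSG00000139687). RB1 had 77.0, 81.1 and 75.3 CPM with YKL-5-124, 90.3, 87.4 and 85.4 CPM with samuraciclib and 87.8, 83.0 and 89.7 CPM with DMSO. The YKL-5-124 libraries were below the DMSO libraries, while the samuraciclib libraries overlapped them. The log2 fold change was -0.16 ± 0.05 with YKL-5-124 (adjusted p = 0.0152, edgeR), short of the fold threshold, and 0.01 with samuraciclib, with a 95% interval from -0.09 to 0.12 (adjusted p = 0.852, edgeR). Over the 21 alternative settings the YKL-5-124 value ran from -0.19 to -0.03. The span of RB1 is shared in part with RCBTB2 (15.0%) and LPAR6 (18.7%) on the opposite strand, which had 107 to 272 and 36 to 74 counts per library where RB1 had 1479 to 2382. Because the strand setting of the counting is not stated, reads of such pairs may not have been told apart.

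The groups did not overlap for 10 of 10 members between YKL-5-124 and DMSO, where 56.8% of all genes tested did not overlap. Between samuraciclib and DMSO they did not overlap for 8 of 10, E2F7 and RB1 being the exceptions, where 52.9% of all genes did not.

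**Figure D2:**
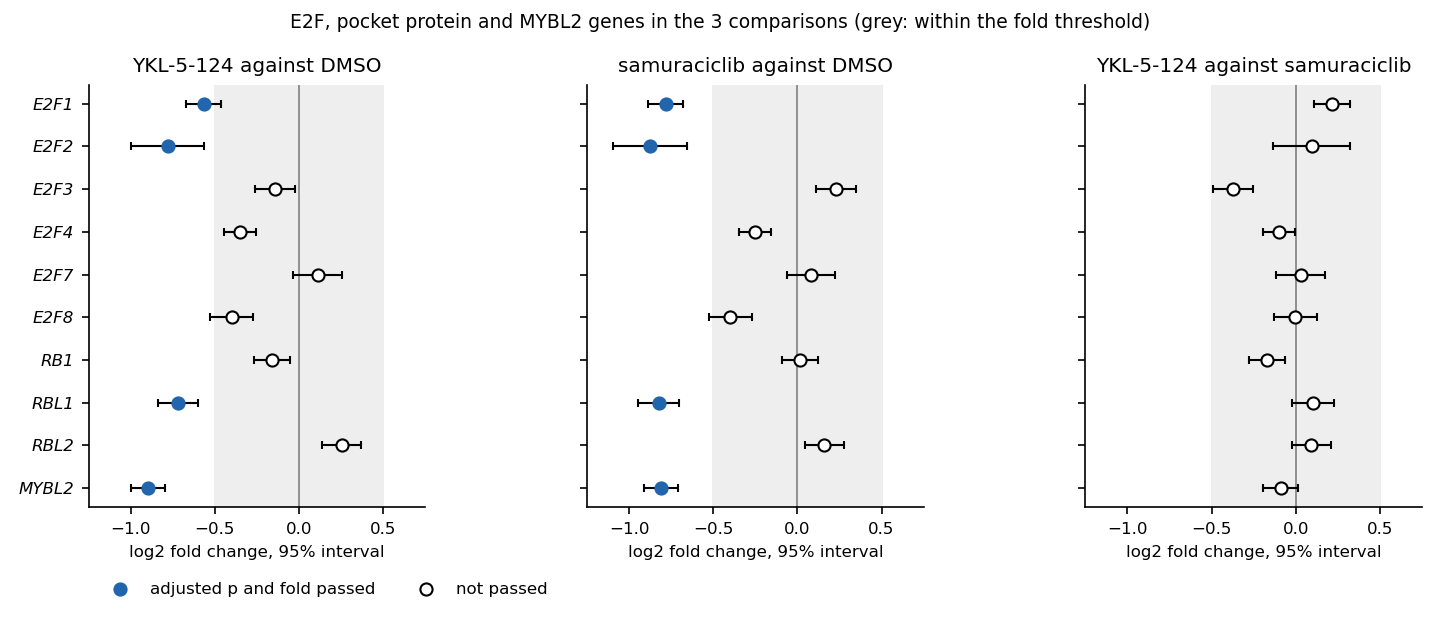
Log2 fold change of the 10 genes (horizontal axis) with its 95% interval in the 3 comparisons, from 1 fit of 9 libraries. The grey band spans the fold threshold of 0.5 on either side of 0, and filled points passed both adjusted p and fold. In the panels against DMSO 4 points are filled in each, all below 0, and in the panel of YKL-5-124 against samuraciclib every point lies inside the band.

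YKL-5-124 and samuraciclib were given at the same concentration and were compared directly, as 1 pair with p-values adjusted over all genes tested. The same concentration need not inhibit CDK7 equally, and its inhibition was not measured in these libraries. Of the 10 members 0 were called in either direction by edgeR or DESeq2, where 2.46% of all genes were called lower and 4.46% higher with YKL-5-124. By adjusted p alone, 2 members were lower and 1 was higher with YKL-5-124, against backgrounds of 13.2% lower and 11.8% higher, and at an unadjusted p below 0.05, 3 were lower and 1 higher, where 18.54% and 17.98% of all genes were. E2F3 was lower with YKL-5-124 than with samuraciclib, with a log2 fold change of -0.37 ± 0.06 (95% interval -0.49 to -0.25, adjusted p = 0.000146, edgeR). RB1 was also lower, with a log2 fold change of -0.17 ± 0.05 (95% interval -0.28 to -0.07, adjusted p = 0.0192, edgeR). E2F1 was higher with YKL-5-124, with a log2 fold change of 0.22 ± 0.05 (95% interval 0.11 to 0.32, adjusted p = 0.00428, edgeR). The groups did not overlap for these 3 genes and for RBL1, which is 4 of 10 where 38.7% of all genes did not overlap.

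For the other 7 genes the adjusted p missed the threshold, and their intervals bound the difference that these libraries leave possible. The interval for MYBL2 ran from -0.19 to 0.01 and that for RBL1 from -0.02 to 0.23. It ran from -0.13 to 0.32 for E2F2, whose counts were lowest, from -0.19 to -0.0019 for E2F4, from -0.13 to 0.13 for E2F8, from -0.11 to 0.17 for E2F7 and from -0.02 to 0.21 for RBL2. The median log2 fold change of the 10 genes between the inhibitors was 0.01, and that of all genes tested was 0.01.

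Levels can be set between genes only per length, here as CPM per kilobase of the gene model in the table. With DMSO, MYBL2 stood at 112 ± 2.3 CPM per kb (SD, n = 3), E2F4 at 57.1, E2F1 at 45.3, RB1 at 13.5, E2F3 at 12.6, E2F8 at 11.4, RBL1 at 10.1, E2F7 at 7.74, RBL2 at 7.10 and E2F2 at 3.74. The neighbours RB1 and E2F3, and E2F7 and RBL2, overlapped in that order. With YKL-5-124, MYBL2 stood at 59.9 CPM per kb, E2F4 at 44.8 and E2F1 at 30.6, and RBL1 came ninth at 6.11, below RBL2 at 8.46. With samuraciclib the same 3 genes led, with 63.8, 47.9 and 26.3 CPM per kb, and RBL1 at 5.69 was again below RBL2 at 7.92. In both inhibitor groups RBL1 thus stood below RBL2 with no overlap in level per kb, and in DMSO it stood above it.

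The E2F family as a whole (E2F1 to E2F8, with E2F5 and E2F6 included) summed to 112 ± 1.28 CPM per kb with YKL-5-124, 115 ± 1.86 with samuraciclib and 145 ± 2.35 with DMSO (SD, n = 3 each). E2F4 held the largest share of this sum in every library, at 39.8 ± 1.17% with YKL-5-124, 41.6 ± 1.32% with samuraciclib and 39.2 ± 0.52% with DMSO. The share of E2F1 was 27.2 ± 0.53% with YKL-5-124, 22.9 ± 0.84% with samuraciclib and 31.2 ± 1.04% with DMSO, and the 3 groups did not overlap. E2F3 held 10.2 ± 0.64% with YKL-5-124, 12.9 ± 0.48% with samuraciclib and 8.67 ± 0.46% with DMSO. E2F7 took 7.44 ± 0.24% with YKL-5-124, 7.12 ± 0.70% with samuraciclib and 5.33 ± 0.29% with DMSO. E2F8 stayed between 7.10% and 8.05% in every library. The activators E2F1 to E2F3 together held 39.3 ± 0.94% with YKL-5-124, 37.5 ± 0.68% with samuraciclib and 42.4 ± 0.71% with DMSO. Shares were described without a test, and they sum to a whole, so that a lower share of E2F1 leaves more for the others.

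**Figure D3:**
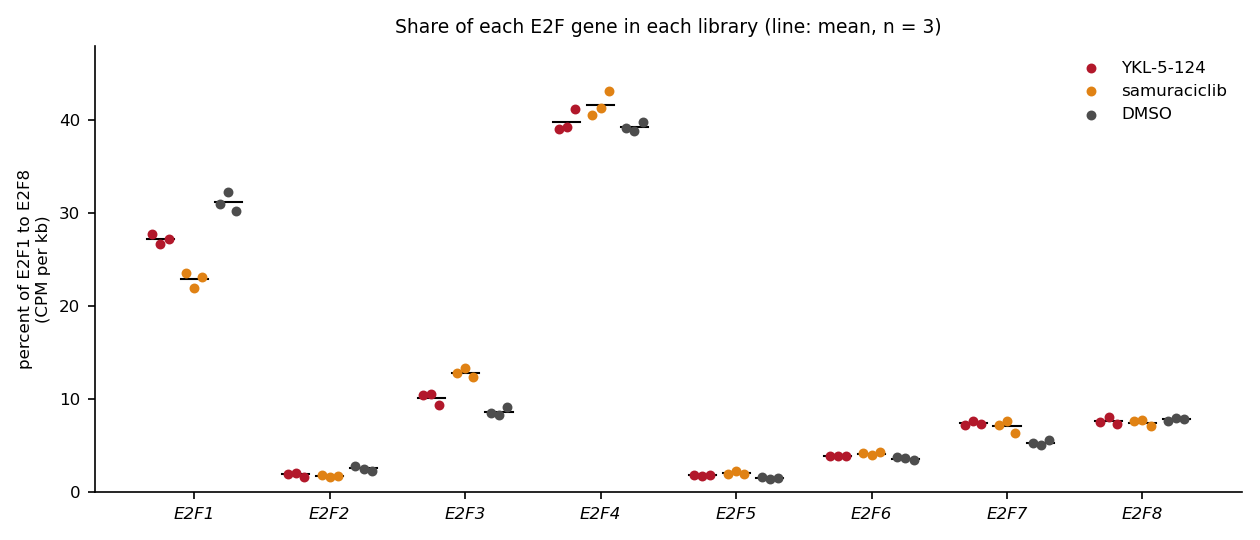
Share of each E2F gene in the summed CPM per kb of E2F1 to E2F8 (vertical axis, percent), with 1 point per library and a line at the mean of 3, for YKL-5-124, samuraciclib and DMSO. E2F4 leads in every library with 38.8% to 43.1%, and the E2F1 points of the 3 groups are separate, at 26.7% to 27.7%, 21.95% to 23.6% and 30.2% to 32.3%.

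Ratios of counts within a library do not depend on the scaling between libraries. RBL1 had 0.566, 0.602 and 0.594 counts per count of RBL2 with YKL-5-124, 0.631, 0.537 and 0.589 with samuraciclib and 1.11, 1.20 and 1.16 with DMSO. The ratio was 1.97-fold lower with YKL-5-124 and 1.98-fold lower with samuraciclib than with DMSO, and its log2 difference between the inhibitors was 0.01. RBL1 had 0.463, 0.465 and 0.475 counts per count of RB1 with YKL-5-124, 0.393, 0.374 and 0.392 with samuraciclib and 0.680, 0.723 and 0.672 with DMSO, so that the 3 groups were separate.

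The ratio of E2F1 to E2F4, an activator to the repressive E2F, was 0.496, 0.475 and 0.462 with YKL-5-124, 0.407, 0.372 and 0.375 with samuraciclib and 0.554, 0.582 and 0.530 with DMSO. It was 1.16-fold lower with YKL-5-124 and 1.45-fold lower with samuraciclib than with DMSO, and 1.24-fold higher with YKL-5-124 than with samuraciclib. Over these 9 tests (3 ratios, 3 comparisons) the exact permutation test, two-sided, gave p = 0.1 in 8, which is the smallest that 3 against 3 allow, and p = 0.9 for RBL1 to RBL2 between the inhibitors. The adjusted p was 0.1125 for the 8, so none could pass the threshold in this design.

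**Figure D4:**
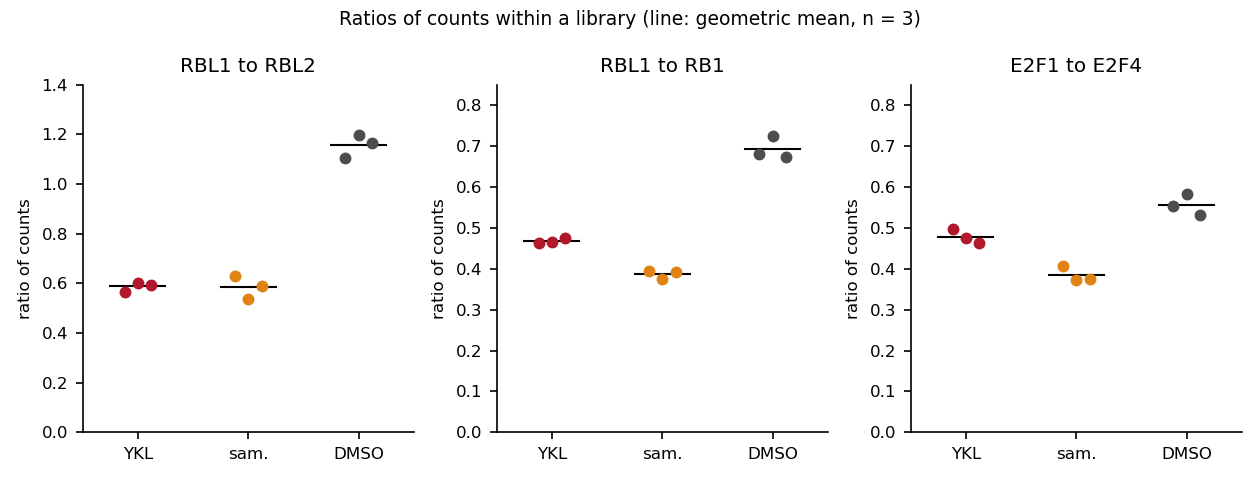
Ratio of counts within each library for RBL1 to RBL2, RBL1 to RB1 and E2F1 to E2F4 (vertical axes, from 0), with 1 point per library and a line at the geometric mean of 3. In all 3 panels every inhibitor library lies below every DMSO library, and the inhibitors overlap only for RBL1 to RBL2, where YKL-5-124 runs from 0.566 to 0.602 and samuraciclib from 0.537 to 0.631.

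Of 4 DP partners and other E2Fs tested, 0 were called in any comparison by edgeR or DESeq2. At an unadjusted p below 0.05, 2 were lower with YKL-5-124, 1 with samuraciclib and 1 between the inhibitors. The shares of all genes at that p were 27.98% lower and 27.52% higher with YKL-5-124, 26.38% and 25.04% with samuraciclib, and 18.54% and 17.98% between the inhibitors, and the same shares hold beside the further counts at an unadjusted p. TFDP1, the main DP partner that E2F1 to E2F6 need to bind DNA, averaged 410 ± 20 CPM with YKL-5-124, 488 ± 5.5 with samuraciclib and 538 ± 16 with DMSO (SD, n = 3 each). All YKL-5-124 libraries were below all DMSO libraries, with a log2 fold change of -0.39 ± 0.05 (adjusted p = 2.30e-06, edgeR), short of the fold threshold. TFDP1 was also lower with YKL-5-124 than with samuraciclib, with a log2 fold change of -0.25 ± 0.05 (adjusted p = 0.00100, edgeR), short of the threshold as well. E2F5 averaged 12.5 CPM with YKL-5-124, 14.4 with samuraciclib and 13.3 with DMSO, E2F6 averaged 18.01, 19.6 and 21.5 CPM in the same groups, and TFDP2 averaged 21.5, 21.1 and 22.8 CPM. TFDP3 had no count in any library.

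The partners of MYBL2 in the MuvB complex were followed as a list, of which 8 genes were tested. LIN9, LIN52, LIN54 and RBBP4, core subunits, and DYRK1A, the kinase that phosphorylates LIN52, were called in 0 of 3 comparisons by edgeR. Over the list, 2 genes were lower and 1 was higher at an unadjusted p below 0.05 in each comparison. Among the core subunits LIN52 had the lowest adjusted p with YKL-5-124, with 30.0 ± 2.1 CPM, against 39.9 ± 1.6 CPM with DMSO and a log2 fold change of -0.41 ± 0.08 (adjusted p = 0.000264, edgeR), short of the fold threshold. FOXM1, which follows MYBL2 on MuvB, averaged 461 ± 8.5 CPM with YKL-5-124, 509 ± 11 with samuraciclib and 442 ± 13 with DMSO. Its log2 fold change was 0.06 ± 0.05 with YKL-5-124 (adjusted p = 0.286, edgeR) and 0.20 ± 0.05 with samuraciclib (adjusted p = 0.00121, edgeR). MYBL1, a relative of MYBL2, averaged 44.0 CPM with YKL-5-124, 42.5 with samuraciclib and 40.4 with DMSO and was not called, and MYB itself stood at 0.35 to 0.48 CPM in the group means and was not tested. LIN37 was called higher with YKL-5-124 (log2 fold change 1.00 ± 0.30, adjusted p = 0.0111, edgeR), but it had 12 to 40 counts per library, lies wholly inside the model AD000671.1 on the same strand, and lost its call without YKL-5-124 3, without DMSO 3, without the 3 libraries low in RN7SL2, at a mean count of at least 50 and under glmTreat, a test against the fold threshold itself. Its values ran from 0.83 to 1.18 over all alternatives.

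Upstream of the pocket proteins, a list of 15 kinases, cyclins and CDK inhibitors was followed, and those named are the called ones and the 3 with the smallest adjusted p. With YKL-5-124, 4 of the 15 were called higher than in DMSO and 1 lower, where 11.9% and 9.93% of all genes were, and glmTreat left 1 higher, CDKN2B, and 0 lower. CDKN1A (p21), an inhibitor of CDK2, averaged 58.4 ± 5.0 CPM with YKL-5-124, against 37.9 ± 2.2 CPM with DMSO (log2 fold change 0.62 ± 0.07, adjusted p = 9.56e-07, edgeR). CDKN2C (p18) and CDKN2B (p15), inhibitors of CDK4 and CDK6, rose by 0.63 and 0.89 on the log2 scale. CDKN1C (p57) was called at 2.58 CPM against 1.54 CPM, and its call was lost without YKL-5-124 3, without DMSO 1 or without DMSO 2, at a mean count of at least 50, with DESeq2 and under glmTreat. Over all alternatives its log2 fold change ran from 0.44 to 1.03. CDK6 was called lower, with 89.4 ± 4.7 CPM with YKL-5-124 against 129 ± 7.7 CPM with DMSO, at a log2 fold change of -0.53 ± 0.06 (adjusted p = 2.96e-07, edgeR). Without YKL-5-124 3, without DMSO 3, scaled by library size alone, at a mean count of at least 50 or under glmTreat, CDK6 was no longer called. Its log2 fold change ran from -0.57 to -0.40 over all alternatives. CDK2 was not called, at 90.2 CPM with YKL-5-124 against 125 CPM with DMSO (log2 fold change -0.47).

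With samuraciclib, 3 of the 15 were called higher than in DMSO, where 8.17% of all genes were, and 0 lower, and glmTreat left 1 higher, CCND2. At an unadjusted p below 0.05, 6 were higher and 5 lower, and DESeq2 called 3 higher and 0 lower. CCND2, a D-type cyclin, averaged 266 ± 9.2 CPM with samuraciclib, against 148 ± 6.2 CPM with DMSO (log2 fold change 0.85 ± 0.05, adjusted p = 1.95e-10, edgeR). CDKN1A and CDKN2B rose by 0.61 and 0.74 on the log2 scale. CCND2 was also higher with YKL-5-124 than with DMSO, at 183 ± 2.4 CPM. Its log2 fold change there was 0.31 ± 0.05 (adjusted p = 2.08e-05, edgeR), short of the fold threshold. Between the inhibitors CCND2 was the only gene of the list called, with a log2 fold change of -0.54 ± 0.05 for YKL-5-124 against samuraciclib (adjusted p = 2.87e-07, edgeR), and it was not called under glmTreat or when libraries were scaled by size alone, at -0.47.

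Of 10 corepressors that RB family proteins recruit, 0 were called in any comparison by edgeR or DESeq2, except 1 higher with YKL-5-124 under library size alone. At an unadjusted p below 0.05, 5 were lower and 2 higher with YKL-5-124, 2 lower and 2 higher with samuraciclib, and 2 lower and 1 higher between the inhibitors. HDAC1, a histone deacetylase of the RB complex, averaged 171 CPM with YKL-5-124, 165 with samuraciclib and 217 with DMSO, at log2 fold changes of -0.34 and -0.40 against DMSO. KDM5A, a histone demethylase first found through its binding to RB1, averaged 161 CPM with YKL-5-124, 167 with samuraciclib and 132 with DMSO, at log2 fold changes of 0.29 and 0.34. Of 4 genes of E2F turnover 0 were called in any comparison by edgeR as described. With YKL-5-124, 1 was called lower with DESeq2, with no filter, with thinned counts and without YKL-5-124 1, YKL-5-124 3, DMSO 2 or DMSO 3. At an unadjusted p below 0.05, 3 were lower and 1 higher with YKL-5-124, 2 lower and 1 higher with samuraciclib, and 2 lower between the inhibitors. SKP2, the F-box protein that marks E2F1 and CDKN1B for degradation, had 46.3 ± 1.2 CPM with YKL-5-124, 50.3 ± 1.8 with samuraciclib and 65.3 ± 2.1 with DMSO, and its log2 fold change of -0.49 ± 0.05 with YKL-5-124 (adjusted p = 5.38e-07, edgeR) fell just short of the threshold. CKS1B, a cofactor of SKP2, averaged 150 ± 2.0 CPM with YKL-5-124, 143 ± 4.6 with samuraciclib and 191 ± 7.3 with DMSO, at log2 fold changes of -0.35 (adjusted p = 3.57e-06) and -0.41 (adjusted p = 6.62e-07, edgeR), short of the threshold. CCNF (cyclin F), which targets E2F1 to E2F3 and E2F7 and E2F8, had 57.1 ± 4.2 CPM with YKL-5-124, 71.9 ± 2.0 with samuraciclib and 78.0 ± 1.6 with DMSO. FZR1, the APC/C activator of G1, was higher by 0.37 and 0.31 on the log2 scale, short of the threshold.

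Downstream, 41 of 42 listed G1/S targets of E2F were tested. With YKL-5-124, 17 of the 41 were called lower than in DMSO, where 9.93% of all genes were, and 0 higher, with a median log2 fold change of -0.44, and 38 of the 41 values were negative. With samuraciclib 17 were also called lower, where 9.55% of all genes were, and 0 higher, with a median of -0.45 and 37 negative values. DESeq2 gave the same counts, and at an unadjusted p below 0.05 the higher genes were 1 and 2. RRM2, the regulated subunit of ribonucleotide reductase, averaged 49.7 ± 3.0 CPM with YKL-5-124, 58.8 ± 1.7 with samuraciclib and 133 ± 5.8 with DMSO, and fell by 1.42 on the log2 scale with YKL-5-124 and by 1.17 with samuraciclib. MCM2 and MCM7, subunits of the replicative helicase, fell by 0.83 and 0.81 with YKL-5-124 and by 0.72 and 0.87 with samuraciclib. CDC45, which joins that helicase at origins, fell by 0.88 with YKL-5-124 and by 1.19 with samuraciclib. Scaled by library size alone the calls were 13 and 8, and under glmTreat they were 13 and 7.

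Of 37 listed G2/M targets of MuvB, MYBL2 and FOXM1, 7 were called lower with YKL-5-124, where 9.93% of all genes were, and 10 with samuraciclib, where 9.55% were, and 0 were called higher (2 and 0 at an unadjusted p below 0.05). The medians were -0.34 and -0.35, with 33 and 36 negative values. TOP2A, the topoisomerase of mitotic chromosomes, averaged 268 ± 22 CPM with YKL-5-124, 359 ± 13 with samuraciclib and 656 ± 31 with DMSO. CDC20, the APC/C activator of mitosis, had 231 ± 9.1, 206 ± 9.2 and 410 ± 15 CPM in the same groups, and KIF20A, a mitotic kinesin, had 68.2 ± 3.7, 62.0 ± 2.2 and 125 ± 6.6 CPM. Without the 3 libraries low in RN7SL2, 10 of the 37 were called lower with YKL-5-124 and 11 with samuraciclib, and the glmTreat counts were 6 and 4. Between the inhibitors 0 genes of either target list were called by edgeR or DESeq2, with medians of -0.07 for G1/S and 0.01 for G2/M. By adjusted p alone 13 G1/S genes were lower and 3 higher with YKL-5-124 than with samuraciclib, and 5 G2/M genes were lower and 8 higher, beside 13.2% lower and 11.8% higher of all genes. The share of lower G2/M genes was thus near that background, and that of higher G1/S genes below it. Among the genes of both lists, UNG, which removes uracil from DNA, had 154 ± 5.9 CPM with YKL-5-124 against 195 ± 5.7 CPM with samuraciclib (log2 fold change -0.34), and CDC25B, a phosphatase that activates mitotic CDK1, had 152 ± 5.7 CPM against 117 ± 4.7 CPM (0.38).

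**Figure D5:**
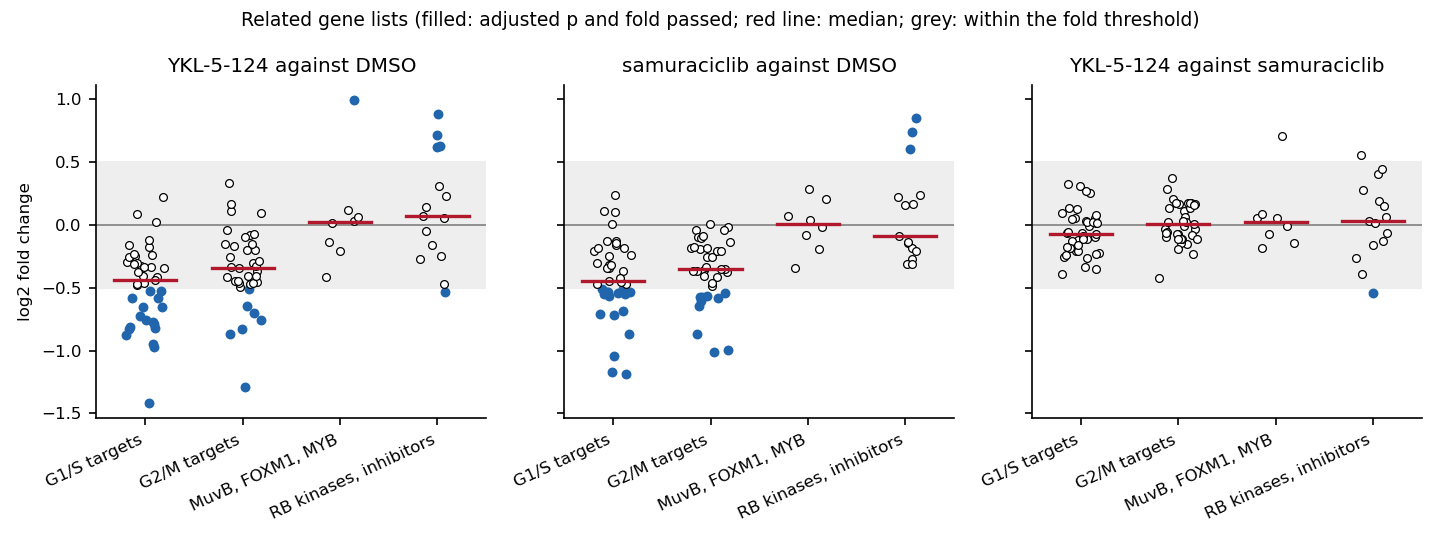
Log2 fold change (vertical axis) of the genes of 4 lists in the 3 comparisons, with 1 point per gene, filled where adjusted p and fold passed, and a red line at the median of the list. The grey band spans the fold threshold. Against DMSO the G1/S and G2/M medians lie between -0.45 and -0.34, those of the MuvB list at 0.02 and 0.01, and between the inhibitors all medians lie between -0.07 and 0.03.

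For 3 of the members the protein-coding genes of most similar pattern were sought among 8907 with a mean of at least 10 CPM, by Pearson's r of log2 CPM over the 9 libraries. The libraries fall into 3 groups, so that a high r mostly reflects the order of the group means. For E2F1 these genes were SYMPK (r = 0.994), WDR18 (0.994) and MMP1 (0.993), which were all lowest with samuraciclib. For MYBL2 they were RPF2 (0.996), THOC6 (0.995) and HERC5 (0.995), whose means with the inhibitors were close to each other and below DMSO. For RBL2 they were SUSD6 (0.976), CEP295 (0.967) and RAD9A (0.965), which were highest with YKL-5-124 and lowest with DMSO. Pearson's r takes no account of the size of a change. MMP1 averaged 23.8 CPM with YKL-5-124, 17.1 with samuraciclib and 71.7 with DMSO, where E2F1 averaged 76.5, 65.9 and 113 CPM. RAD9A averaged 56.4, 48.0 and 26.4 CPM in the same groups, where RBL2 averaged 61.9, 58.0 and 52.0 CPM.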

How the data were processed

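Poly(A)-selected RNA of 9 FaDu libraries was sequenced in read pairs. The authors aligned reads to GRCh38 with HISAT2 and counted them per GENCODE gene with featureCounts 2.0.6. The deposited counts are whole numbers per gene with no normalization. The release and the strand setting are not given in the sources used here.

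Genes were filtered with filterByExpr and scaled with TMM in edgeR 4.0.16, which left 16065 of 58929 genes. Of the rest, 25347 had no count. All 9 libraries entered 1 quasi-likelihood fit without covariates. A gene was called at a Benjamini-Hochberg adjusted p below 0.05 and a log2 fold change beyond 0.5. The SE is the size of the log2 fold change divided by the square root of F. Ratios were tested with exact permutation. Intervals are 95%. Replicates differed beyond sampling noise (chi-square per degree of freedom of 3.62 to 20.8 within groups), which does not tell separate cultures from separate library preparations. Each library counted as a sample.

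Members and lists were chosen with earlier results of these data known. The text names all members, all genes of the partner and MuvB lists, up to 3 genes per comparison from other lists by adjusted p, genes called against their list, genes of similar pattern, and overlapping models. All called genes of the kinase list are named besides, chosen after their values were seen.

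Same-numbered libraries of YKL-5-124 and samuraciclib deviated together (r = 0.110, 0.331 and 0.248), which by the rule used counts as pairing, while those with DMSO did not (-0.146 to 0.127). Across numbers, DMSO 3 deviated with YKL-5-124 2 (r = 0.256) and samuraciclib 2 (r = 0.253), and these are the 3 libraries low in RN7SL2. The pairing comes from the data alone.

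Alternatives covered scaling, filter, threshold, tool (DESeq2 1.42.0), block, depth and each library left out. Scripts were tested on simulated data. The work used R 4.3.3 with limma 3.58.1, and Python 3.11.15 with scipy 1.17.1, numpy 2.4.6, matplotlib 3.10.9 and pandas 2.3.3.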

Additional observations from a re-analysis of the deposited data

How the results depend on the processing

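The 4 members called lower in each inhibitor against DMSO and the 0 called between the inhibitors stayed at these counts with DESeq2, RLE scaling, no filter, a mean count of at least 50, only the groups compared, thinned counts, without the 3 libraries low in RN7SL2 and with each library left out. With the replicate block the MYBL2, E2F1, E2F2 and RBL1 calls against DMSO all held (4 and 4 lower), and it changed no other member's call. The block follows the library numbers, by which DMSO did not pair with the inhibitors. It therefore cannot show how these calls fare under a pairing across numbers. For YKL-5-124 against DMSO, 3 were lower under library size alone and under glmTreat, where E2F1 was lost (log2 fold change -0.44, and adjusted p = 0.202). Without a fold threshold, 8 members were lower and 1 higher with YKL-5-124, 6 lower and 2 higher with samuraciclib, and 2 lower and 1 higher between the inhibitors. Over all genes, glmTreat called 762 lower and 696 higher with YKL-5-124, 571 and 411 with samuraciclib, and 33 and 38 between the inhibitors.

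Only values near 0 changed sign. RB1 with samuraciclib ran from -0.0193 to 0.0379 with a library left out (-0.0077 without samuraciclib 1, -0.0193 without DMSO 2). E2F7 between the inhibitors ran from -0.0481 (without samuraciclib 3) to 0.102. E2F8 between the inhibitors was 0.0666 under library size alone, 0.0140 at a mean count of at least 50, and 0.00425, 0.0182 and 0.0296 without YKL-5-124 1, YKL-5-124 3 or samuraciclib 2, and with a library left out it ran from -0.0423 to 0.0296. The log2 ratio of RBL1 to RBL2 between the inhibitors ran from -0.0538 to 0.0624. Depth limits E2F2 most, whose counting error alone, at the mean count of each group, was 4.88% to 6.57% of its level.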
